A study of Caenorhabditis elegans with 4 samples.

Results

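The regions described are the stretches of chromosome III at which the transcription factor CES-1 was called in embryos of Caenorhabditis elegans by chromatin immunoprecipitation and sequencing (ChIP-seq). They were chosen by chromosome alone, as every entry on chromosome III in the series' combined list, and number 1330 of the 8678 regions of that list (15.3%, 95% Wilson interval 14.6 to 16.1). Choice by chromosome used no score, width or replicate, so these are described below as measures apart from that choice. The embryos came from strain OP174, raised at 20 degrees Celsius, with both sexes present. Every library shares the unc-119(ed3) mutation and the bombarded transgene wgIs174, which supplies CES-1 joined to TY1, EGFP and FLAG tags along with a working unc-119. Per the labels there are 2 ChIP libraries, precipitated with antibodies to GFP, and 2 Input libraries of total chromatin DNA. Whole embryos were used, so a region does not say in which cells CES-1 was bound.

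CES-1 is a zinc-finger protein of the Snail family. When active in the sister cells of the NSM neurons it is known to repress egl-1, the gene that triggers programmed cell death, and CES-2 normally holds ces-1 down there, so that these cells die. Snail proteins bind short E-box sequences and often act as repressors. Chromosome III carries ced-4 and ced-9, which act below egl-1 in the death pathway, the Hox genes lin-39, mab-5 and egl-5, and unc-119 itself, while ces-1 lies on another chromosome. Worm autosomes have a central part with little recombination and many conserved genes, and arms with more recombination and more repeats. The regions were not matched to genes or to DNA letters here, because the annotation at hand belongs to another build than the peak lists, so no statement is made about any of these genes.

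Positions are those of WormBase build WS220, counted from 1. The authors numbered the peaks of each list from the best down, and this peak number serves as the rank. Their score has no stated scale and stops at a ceiling of 3.97 in the combined list, where the number still orders the regions. With no read counts in the lists, depth is not known, and intervals given for shares cover counting error only. The labels do not say whether replicates 1 and 2 were grown apart, so their difference may be technical. With 2 replicates and no second condition, values are given without a test.

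On chromosome III the regions ran from 25724 to 13768466, on a span of 13.8 Mb that ends at the last region of any list. They lay at 96.5 per Mb and, after overlapping ones were merged into 1248 stretches, covered 487 kb or 3.53% of the span. Regions on III were on average less dense than those on X (113 per Mb) and I (103 per Mb), and denser than those on II (84.7), IV (73.6) and V (57.8 per Mb). When as many nuclear regions as the combined list holds were taken from the top of each replicate's own list, III held 1343 in replicate 1 and 1338 in replicate 2, which is 15.4% ± 0.0407 (SD, n = 2).

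The best-ranked region of chromosome III lay in the right arm at 13060945 to 13061414 and was number 16 of the combined list, number 16 of replicate 1 and number 24 of replicate 2. The next, at 13643360 to 13643810 near the right end, was number 22 and stood at numbers 15 and 28 in replicates 1 and 2. Both lie within the last megabase of the span and are 582 kb apart. The left arm gave the following 4. At 1921090 to 1921848 lay number 26, which stood at number 58 of replicate 1 but at number 7 of replicate 2. At 3789620 to 3790083 lay number 30 (numbers 28 and 40 in replicates 1 and 2). At 2913992 to 2914461 lay number 35 (numbers 32 and 45), and at 3414369 to 3414790 number 37 (numbers 55 and 30). In these left-arm regions neither replicate was always the stronger.

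The centre entered with the region at 5720193 to 5720665, number 42 of the combined list and numbers 39 and 36 in replicates 1 and 2. The region at 10283986 to 10284503 in the right arm was number 44 and stood at numbers 127 and 22. Those at 6431642 to 6432044 (number 60, with 69 and 56) and at 7153823 to 7154160 (number 69, with 97 and 55) were in the centre, as was the one at 8416735 to 8417254 (number 71, with 149 and 39). The last of the 12 best-ranked, at 11358147 to 11358556 in the right arm, was number 76, with numbers 62 and 80. All 12 overlapped a region of each replicate. In 11 of the 12, the centre of the best replicate region lay within 15 bp of the combined centre in both replicates, and the exception was the region at 1921090 to 1921848, where it lay 82 and 72 bp to the right. That region, 759 bp wide, was also the widest of the chromosome.

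The 12 were not all in crowded stretches. The region at 6431642 to 6432044 had no combined neighbour within 10.4 kb on the left and 20.6 kb on the right, whereas the one at 5720193 to 5720665 had neighbours 0.361 kb and 0.834 kb away. The region at 8416735 to 8417254 overlapped another of 647 bp by 24 bp, and together they made the longest merged stretch of the chromosome, 1143 bp. The best-ranked region of all on III was listed again with the same start and end under number 8378.

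Regions of III were spread over all ranks below number 15. Among the 10 best-ranked regions of the genome III had 0, among the first 100 it had 14, among the first 500 it had 85 (17.0%) and among the first 1000 it had 173. Between numbers 3001 and 4000 the share of III was 14.0% (95% Wilson interval 11.99 to 16.3), between 6001 and 7000 it was 13.5% (11.5 to 15.8), and between 7001 and 8000 it was 17.1% (14.9 to 19.6). The last region of the whole list, number 8678, was also on III, at 2425539 to 2425978, and still overlapped numbers 11465 and 6386 of replicates 1 and 2. The last in the centre, number 8663 at 8126525 to 8126964, overlapped numbers 9519 and 9082, and the last in the right arm, number 8676 at 11453920 to 11454359, overlapped numbers 7058 and 8554. The median number was 4242 on III and 4351 on the other chromosomes together, or 4268 on the other autosomes without X. It was 4211 on I, 4229 on IV and 4563 on X. Of the regions on III, 721 (54.2%, 51.5 to 56.9) reached the score ceiling, against 53.3% of all combined regions and 53.2% (52.04 to 54.3) of those on the other chromosomes.

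The span was divided into 3 equal parts of 4.59 Mb, called left arm (1 to 4593076), centre (to 9186152) and right arm (to 13779229). These names stand for position only and are not recombination boundaries. The left arm held 399 regions (30.0%, 95% Wilson interval 27.6 to 32.5), the centre 492 (37.0%, 34.4 to 39.6) and the right arm 439 (33.0%, 30.5 to 35.6). In density this was 86.9, 107 and 95.6 per Mb. In the replicates' own best-ranked regions the left arm held 29.4% ± 0.608, the centre 37.4% ± 1.68 and the right arm 33.2% ± 1.07 (SD, n = 2). In each replicate the order was centre, right arm, left arm. The centre of III was 1.17 times as dense as the mean of its arms. The corresponding ratio was 1.10 on X, 1.32 on IV, 1.35 on I, 1.66 on II and 1.89 on V, so III had the flattest profile of the 5 autosomes by this measure, with no test of that difference. The right arm of III held 1.10 times the regions of the left, and the same ratio was 0.925 on I, 0.884 on X, 0.843 on V, 0.788 on IV and 1.66 on II.

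**Figure D1:**
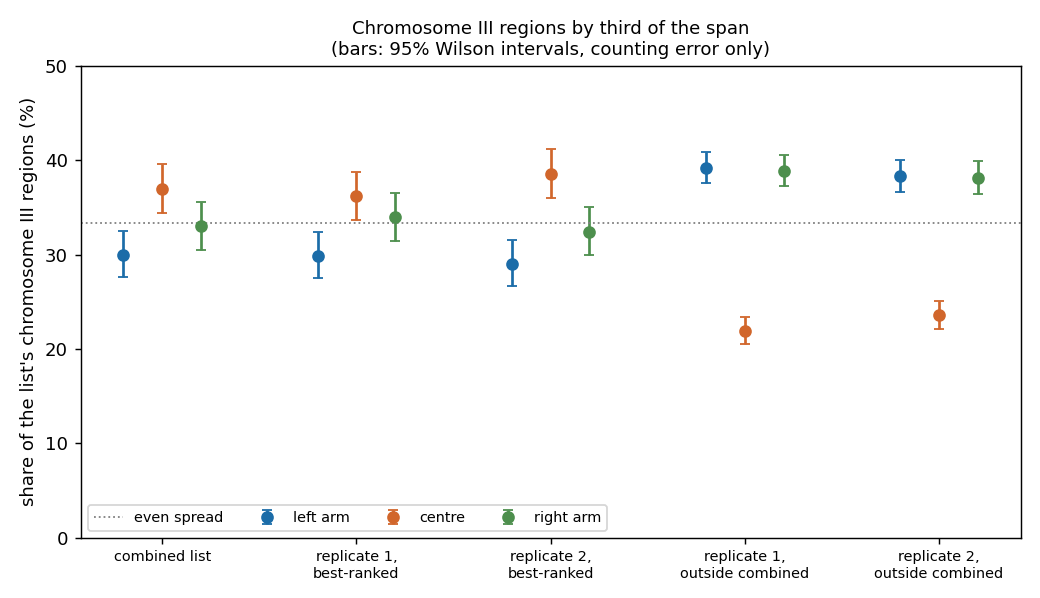
Share of the chromosome III regions of each list that fell in the left arm, centre and right arm. Points are shares in percent, bars are 95% Wilson intervals and the dotted line marks an even spread. In the combined and best-ranked lists the centre stands highest at 36.2% to 38.6%, and it stands lowest, at 21.9% and 23.6%, in the replicate regions that overlap no combined one.

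The full replicate lists, which run on to much weaker peaks, were arranged the other way. Replicate 1 listed 4816 regions on III and replicate 2 listed 4690. Of those in replicate 1, 36.3% lay in the left arm, 26.9% in the centre and 36.8% in the right arm. In replicate 2 the shares were 35.3%, 28.3% and 36.4%. Regions that overlapped no combined region were still more peripheral, with 39.2%, 21.9% and 38.9% in replicate 1 (3219 regions) and 38.3%, 23.6% and 38.1% in replicate 2 (3099 regions). These regions were taken outside the combined list, which removes most from the part where combined regions are densest.

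The share of a replicate's regions that reached the combined list therefore depended on position. In the centre it was 45.6% in replicate 1 (95% Wilson interval 42.9 to 48.4) and 44.9% in replicate 2 (42.2 to 47.6). In the left arm it was 27.7% (25.7 to 29.9) and 28.3% (26.2 to 30.6), and in the right arm 29.4% (27.3 to 31.5) and 30.8% (28.7 to 33.1). Over the whole of III it was 33.2% and 33.9%, against 34.3% and 34.6% of all nuclear regions of replicates 1 and 2. Presence in the other replicate went the same way but by less. In replicate 1, 72.01% of the centre regions, 62.7% of those in the left arm and 64.5% of those in the right arm overlapped replicate 2. In replicate 2 the shares found in replicate 1 were 70.6%, 65.02% and 68.8%. There the 95% Wilson intervals of the centre (68.1 to 72.98) and the right arm (66.5 to 70.9) overlapped. For the whole chromosome the shares were 65.9% and 67.95%, against 67.1% and 67.6% of all nuclear regions.

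Rank and position were set side by side on III. The left arm had 67 of the 173 regions among numbers 1 to 1000 (38.7%, 95% Wilson interval 31.8 to 46.2), 136 of the 503 among numbers 1001 to 4339 (27.04%, 23.3 to 31.1) and 196 of the 654 below (29.97%, 26.6 to 33.6). The centre had 56 (32.4%), 192 (38.2%) and 244 (37.3%) in the same classes, and the right arm 50 (28.9%), 175 (34.8%) and 214 (32.7%). The left arm thus held the most regions in the best class and the fewest in the lower classes. Median numbers hardly showed this, being 4248 in the left arm, 4249.5 in the centre and 4217 in the right arm. Among numbers 3001 to 4000 the left arm had 29 of 140 regions (20.7%) and the right arm 58 (41.4%). No trend across ranks was tested, and the intervals of the 3 classes for the left arm meet or nearly meet.

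**Figure D2:**
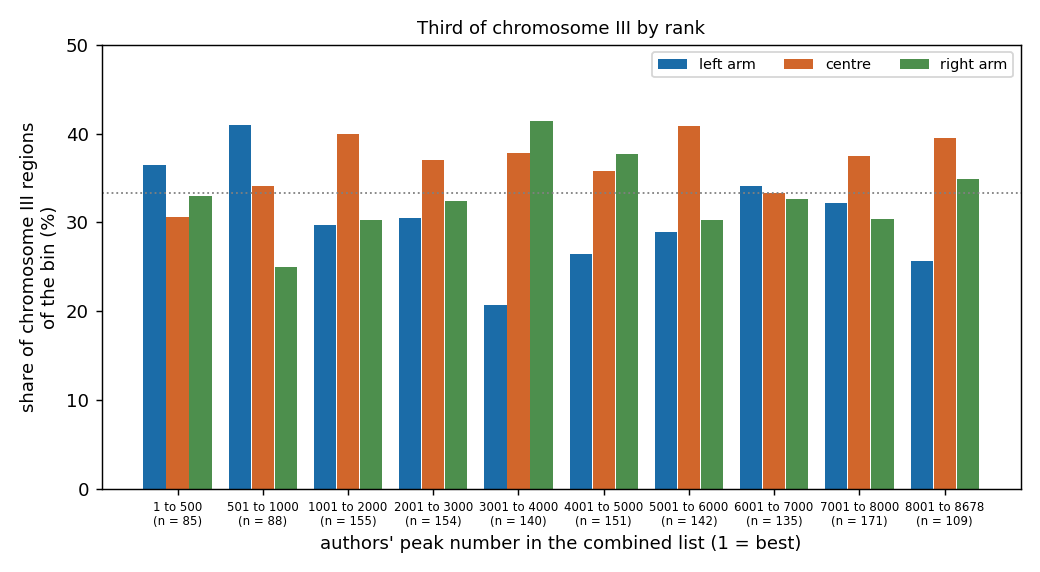
Share of chromosome III regions in the left arm, centre and right arm for successive ranges of the authors' peak number in the combined list, with the number of regions in each range below its bars. The left arm stands above the centre and right arm for numbers 1 to 500 (36.5%), 501 to 1000 (40.9%) and, narrowly, 6001 to 7000 (34.1%). Its own lowest share is 20.7%, for 3001 to 4000.

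Windows of 100 kb gave a finer view. The 138 windows of III held a median of 9 combined regions, with quartiles at 5 and 12.75 and a mean of 9.64 ± 5.26 (SD over windows). The medians were 9 on I, 8 on II, 7 on IV, 5 on V and 11 on X. The densest windows of III lay at 6600001 to 6700000 in the centre and at 11300001 to 11400000 in the right arm, with 23 regions each. By comparison the densest window reached 38 on II, 32 on X, 31 on I and 27 on IV, and on V it was 23 as on III. In the window at 6600001 to 6700000 the best-ranked regions of replicates 1 and 2 numbered 21 and 23, and in that at 11300001 to 11400000 they numbered 22 in each. Next came 6300001 to 6400000 with 22 regions (22 and 21 in replicates 1 and 2), 4500001 to 4600000 with 21 (19 and 21), and 4000001 to 4100000 with 20 (21 and 16). In the centre, the windows at 8200001 to 8300000 and 8800001 to 8900000 also held 20.

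Crowded windows were not always made of strong regions. The window at 6300001 to 6400000 had 22 regions, of which 8 were at the score ceiling. That at 4000001 to 4100000 had 20, of which 14 were at the ceiling. The window at 8800001 to 8900000 also had 14 of 20 at the ceiling, and 16 stretches after merging. Windows with 15 or more regions numbered 26, which is 18.8% of the windows with 473 regions or 35.6% of all on III. Of these windows 8 were in the left arm, 11 in the centre and 7 in the right arm. The 8 of the left arm stood toward the centre except for 1, since 7 of them began at 2900001 or beyond. Of regions with numbers 1 to 1000, 39.9% (95% Wilson interval 32.9 to 47.3) were in such windows, against 31.6% (27.7 to 35.8) of numbers 1001 to 4339 and 37.5% (33.8 to 41.2) below.

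In windows of 1 Mb, the 3 windows at the left end held 67, 59 and 70 regions. The count then reached 105 in the window starting at 3000001 and 133 in the window starting at 4000001, the highest of the chromosome. From there it was 113 and 110, fell to 89 in the window starting at 7000001 and stood at 130 in the next. The right arm had 106, 94, 90 and 70 in the windows starting at 9000001, 10000001, 11000001 and 12000001, the last as low as the third of the left end. The incomplete last window of 779 kb held 94. In the window with 133, the best-ranked regions numbered 124 in replicate 1 and 128 in replicate 2. In the window with 59 they numbered 64 and 53.

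**Figure D3:**
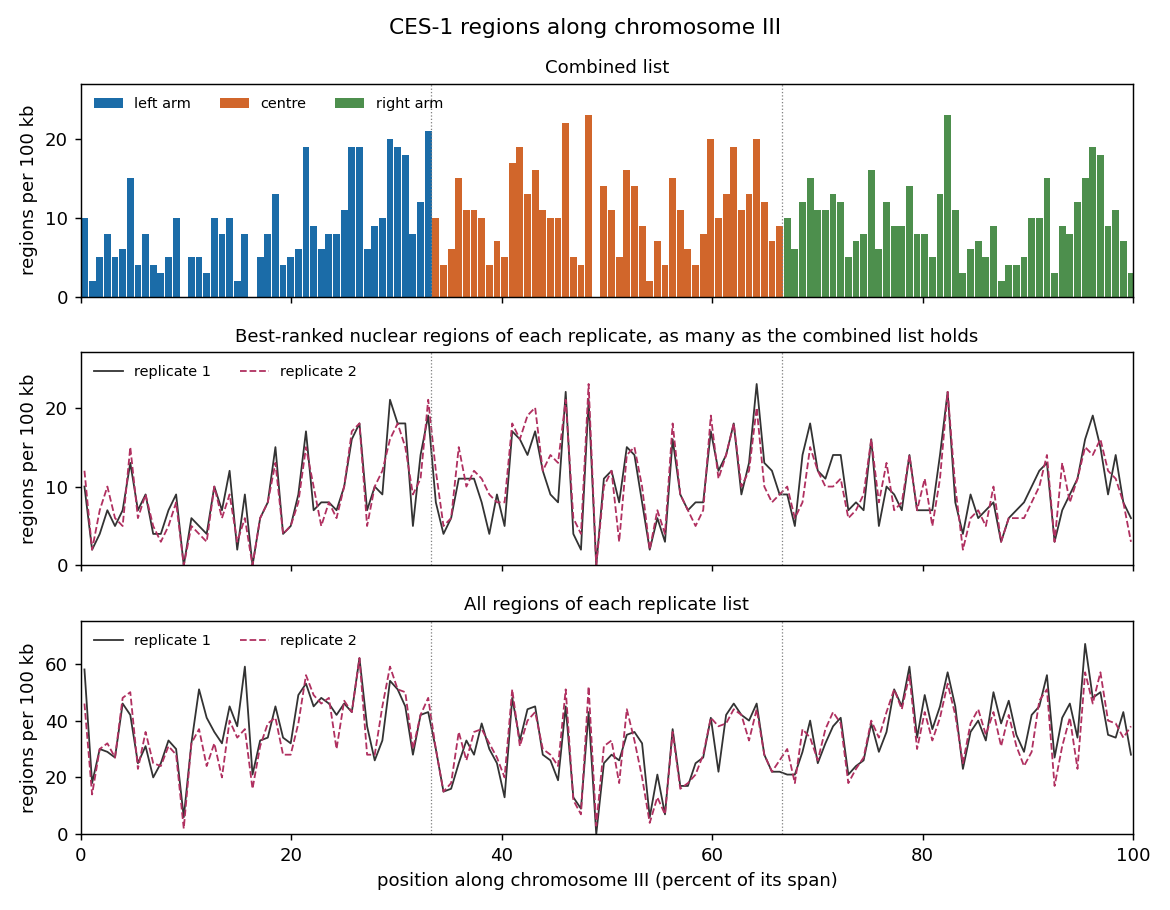
Regions per 100 kb along chromosome III, with position as percent of its span. The top panel shows the combined list coloured by left arm, centre and right arm, the middle panel the 8678 best-ranked nuclear regions of each replicate, and the bottom panel all regions of each replicate. Lines of the replicates run close together, the combined list peaks at 23 regions in 2 windows, and 3 windows hold 0 combined regions.

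The replicates placed their regions in the same windows. Over the 138 windows, the counts of best-ranked regions in replicates 1 and 2 had a Pearson's r of 0.898 and a Spearman's rho of 0.873, and the counts of all listed regions 0.881 and 0.865. These describe windows that share genome, build and peak caller, and are not independent points. The combined count was less close to the full lists, with a Pearson's r of 0.559 for replicate 1 and 0.684 for replicate 2.

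Empty windows were few. The 3 windows without a combined region lay at 1300001 to 1400000 and 2200001 to 2300000 in the left arm and at 6700001 to 6800000 in the centre, and the best-ranked regions of both replicates also numbered 0 in each. When all windows were moved by 50 kb, 0 were empty, so this count rests on where windows start. They make 2.17% of the windows of III, against 1.32% on I, 1.69% on X, 4.58% on II, 6.86% on IV and 12.4% on V. The full replicate lists separated them. The window at 6700001 to 6800000 had 0 regions in replicate 1 and 3 in replicate 2, next to the densest window of the chromosome. The window at 1300001 to 1400000 had 6 and 2. The window at 2200001 to 2300000 had 21 and 16 regions, all of them outside the combined list, and so was empty only at the top of the lists. The windows at 100001 to 200000, 2000001 to 2100000, 7400001 to 7500000 and 12000001 to 12100000 held 2 combined regions each, and 0 windows held 1.

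The longest stretch between combined regions ran from 2152102 to 2304953 in the left arm, 153 kb. Wholly within it lay 42 regions of replicate 1 and 28 of replicate 2, the best being numbers 11017 and 9444. Next were 134 kb at 1285051 to 1418625 (12 regions of each replicate, best numbers 13042 and 13754) and 130 kb at 6696561 to 6826696 (3 and 7 regions, best numbers 17434 and 8896). A stretch of 106 kb at 1626028 to 1731799 held 32 and 17 regions, and 1 of 105 kb at 235283 to 340071 held 18 and 22. At the chromosome's mean density, the stretch at 6696561 to 6826696 would hold 45.5 regions of replicate 1 and 44.3 of replicate 2, and the longest stretch 53.4 and 52.03. Against these values the stretch in the centre held few regions of either replicate, and the longest one came much nearer to them. The mean density counts all replicate regions of III, of which 33.2% and 33.9% overlapped a combined region in replicates 1 and 2. Such regions cannot lie wholly within a stretch chosen for holding no combined region. Part of each shortfall was therefore fixed by the choice, and its size was not tested. Of the 5 stretches over 100 kb, 4 were in the left arm. The longest stretch of III was shorter than that of any other chromosome, the others reaching from 158 kb on X to 461 kb on V. III also had the shortest span, 13.8 Mb against 15.1 Mb on I and more elsewhere, and this difference was not tested.

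Neighbouring regions of III lay a median of 4.12 kb apart, edge to edge, with a lower quartile of 1046 bp and an upper quartile of 12370 bp. The median was larger than on any other chromosome, where it ran from 3.03 kb on X to 3.87 kb on IV, and this was not tested. It was 4.61 kb in the left arm, 3.40 kb in the centre and 4.47 kb in the right arm. The 37 stretches over 50 kb added up to 2661 kb, or 19.3% of the span, and 14 of them were in the left arm, 8 in the centre and 15 in the right arm. Of the regions on III, 535 (40.2%, 95% Wilson interval 37.6 to 42.9) lay within 1 kb of another, against 42.4% of all combined regions.

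Regions that overlapped another numbered 163 (12.3%, 10.6 to 14.1), against 13.7% of all combined regions. They formed 80 pairs and 1 group of 3, which lay at 4560418 to 4561393 in the left arm near its border with the centre, with 4701 as its best number. Of these 81 stretches, 22 were in the left arm, 30 in the centre and 29 in the right arm. An interval was repeated exactly in 10 cases, 0.752% of the regions on III, against 0.761% of all combined regions. In each of the 10 the better number was between 16 and 895, and the other lay between 1626 and 8590. At 7723322 to 7723830, for example, the numbers were 239 and 1626, and at 2100716 to 2101169 they were 261 and 8590. Repeated intervals are counted as separate regions in all counts above except those after merging.

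Widths on III followed rank. The commonest width, 440 bp, was held by 894 regions (67.2%, 95% Wilson interval 64.6 to 69.7), against 68.9% of all combined regions. Narrower regions numbered 400 and wider ones 36, with a range of 110 to 759 bp. Among numbers 1 to 1000, 0 regions were 440 bp wide. The median width was 347 bp for numbers 1 to 500, 288.5 bp for 501 to 1000 and 218 bp for 1001 to 2000. The share at 440 bp then went to 49.4% for numbers 2001 to 3000, 87.1% for 3001 to 4000 and 92.05% for 4001 to 5000, and was above 98% in each later range. Below the score ceiling, 597 of 609 regions (98.03%) were 440 bp wide, and at the ceiling 297 of 721 (41.2%). On the other chromosomes the shares were 97.2% and 44.6%. Median widths of III regions thus fell over the first 2000 numbers. From 2001 to 3000 regions were split between 440 bp and narrower widths, and beyond number 4000 over 92% stood at 440 bp.

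**Figure D4:**
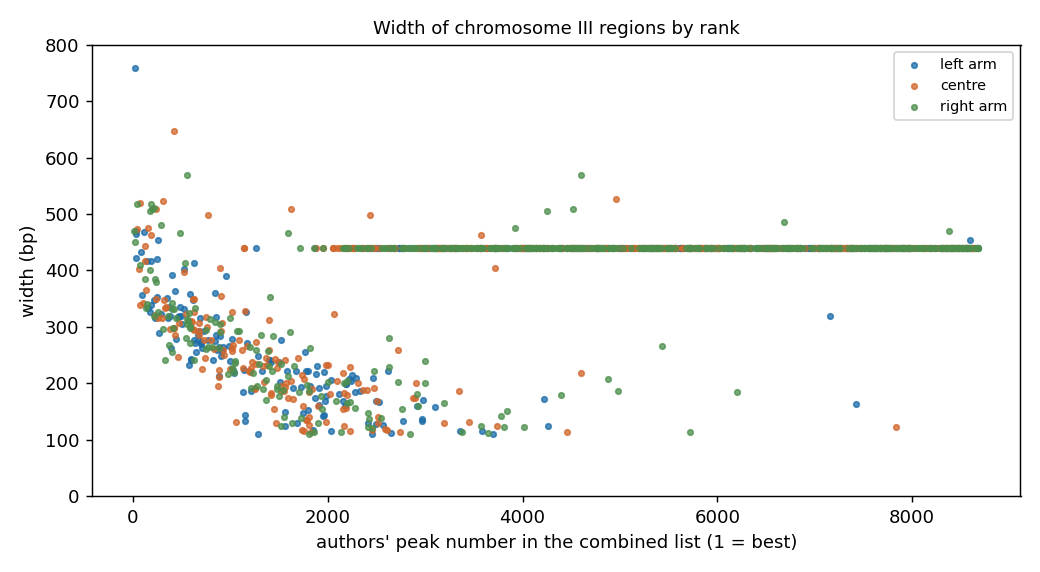
Width in bp of each chromosome III region against the authors' peak number in the combined list, coloured by left arm, centre and right arm. Widths fall from up to 759 bp toward the narrowest value of 110 bp over the first 2000 numbers, and most later regions lie on the line at 440 bp.

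The narrowest regions, 110 bp each, were number 1280 at 2532761 to 2532870, number 1809 at 10651724 to 10651833 and number 2459 at 4313496 to 4313605. In both replicates the regions they overlapped were far wider, 440 bp in replicate 1 and 436 bp in replicate 2. The widest after number 26 were number 423 at 8417231 to 8417877 (647 bp) and number 558 at 10096432 to 10097000 (569 bp). In replicate 1, 95.1% of the regions on III were 440 bp wide, and in replicate 2, 92.7% were 436 bp wide. An identical start and end in replicate 1 was found for 194 of the 1330 combined regions (14.6%), and in replicate 2 for 1. The commonest width of the combined list thus equalled that of replicate 1. Where the combined intervals came from was not tested. The left arm had 63.2% of its regions at 440 bp (95% Wilson interval 58.3 to 67.7), the centre 69.1% (64.9 to 73.03) and the right arm 68.8% (64.3 to 72.9).

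Nearly every region of III was present in each replicate. Replicate 1 held 1321 of the 1330 (99.3%, 95% Wilson interval 98.7 to 99.6), against 99.2% of all combined regions, and replicate 2 also held 1321, against 99.5%. In both together 1312 were found (98.6%, 97.9 to 99.1), against 98.7% of all combined regions. Since the combined list derives from these replicates, this is no independent check. Each replicate list held 30000 regions, so weak peaks could also give an overlap. With replicate peak numbers up to 8678 alone, 88.5% of the regions on III were found in replicate 1 and 89.5% in replicate 2. On the other chromosomes these shares were 87.5% and 89.1%. Of the left arm's regions 397 of 399 were in both, of the centre's 483 of 492 and of the right arm's 432 of 439. Overlap in both replicates was complete for numbers 1 to 2000 and 92.7% for numbers 8001 to 8678. With 50% reciprocal overlap 82.9% of the regions on III were found in both, against 83.7% of all combined regions, and with centres within 200 bp 97.4%, against 97.3%.

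Reciprocal overlap was lowest for numbers 1001 to 3000. It was 100% for numbers 1 to 500, 81.8% for 501 to 1000, 47.7% for 1001 to 2000 and 55.2% for 2001 to 3000, and at least 87.1% in each later range. On the other chromosomes it was 97.6%, 85.2%, 52.7% and 58.3% in the first 4 of these ranges. A combined region narrower than 50% of a replicate region cannot reach 50% reciprocal overlap with it, however close their centres. Most replicate regions on III were 440 or 436 bp wide, in replicates 1 and 2 respectively. The median width of combined regions was 218 bp for numbers 1001 to 2000. The region at 10651724 to 10651833, 110 bp wide, met regions of 440 and 436 bp and could not pass. Part of the low shares was thus fixed by width, and the size of that part was not tested. Regions 440 bp wide were found in 96.4% of cases by this measure and those of any other width in 55.3%. Centres were close throughout. The median distance from a combined centre to that of the best overlapping region was 13 bp in replicate 1 and 11 bp in replicate 2, and the 90th percentile was 115 and 93 bp.

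Only 18 regions of III were missing from a replicate, 9 from each, and 0 from both. Of those in replicate 1 alone, the best-ranked was number 4065 at 7814009 to 7814448, which was number 4275 of replicate 1. It was followed by number 6200 at 12410294 to 12410477 and number 6604 at 9486547 to 9486986. In replicate 2 alone, the best-ranked was number 2608 at 6220141 to 6220257, number 2522 of replicate 2 and only 117 bp wide. It was followed by number 4973 at 9009937 to 9010376 and number 5882 at 2553618 to 2554057. Of the 9 in replicate 1 alone 0 were in the left arm, 5 in the centre and 4 in the right arm, and of the 9 in replicate 2 alone 2, 4 and 3. Their median numbers in the combined list were 7161 and 8130, with ranges of 4065 to 8619 and 2608 to 8615. Most thus stood in its lower part.

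For the 1312 regions in both replicates the 2 ranks went together. In 1134 (86.4%, 95% Wilson interval 84.5 to 88.2) the best overlapping peak numbers were within 2-fold of each other, against 84.9% of all combined regions in both. Spearman's rho of these numbers was 0.839 over the 1312 regions of III and 0.826 over the 7253 of the other chromosomes. Across regions this is a description, since they share libraries. The combined list derives from the same replicates, and whether their ranks entered it was not stated. Over all 3982 overlapping pairs of replicate regions on III, each counted apart, rho was 0.607, and over those that overlap a combined region it was 0.471. The value of 0.839 takes the best number under each region and is another quantity than these. The median best number under a combined region of III was 4002 in replicate 1 and 3987 in replicate 2. The lowest-placed support came from number 26636 of replicate 1 and from number 29056 of replicate 2. Peaks at the score ceiling of both replicates underlay 638 regions (47.97%, 45.3 to 50.7), against 47.9% of all combined regions.

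**Figure D5:**
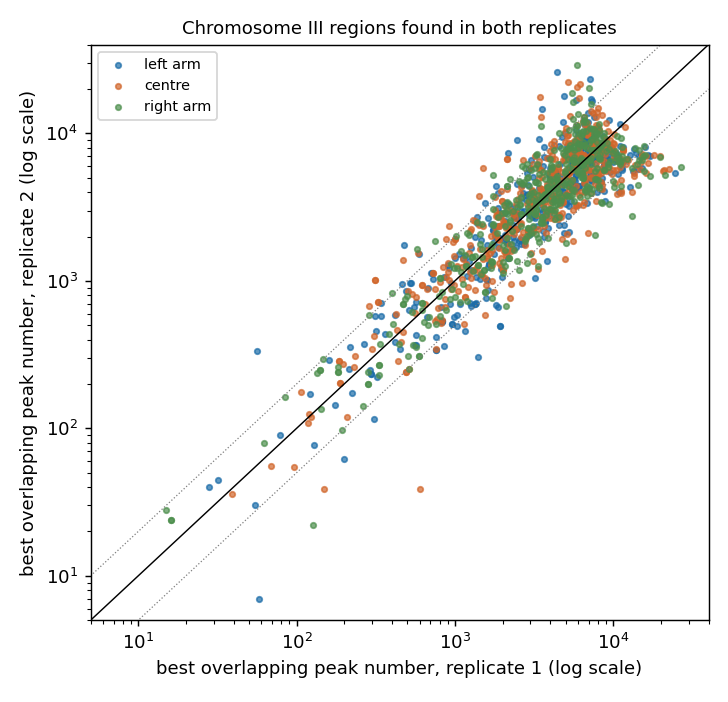
Best overlapping peak number in replicate 2 against that in replicate 1, on log axes, for the 1312 chromosome III regions found in both. The solid line marks equal numbers and the dotted lines 2-fold differences, within which 86.4% of the points lie.

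Few strong replicate regions of III were left out of the combined list. At its own score ceiling replicate 1 had 649 regions on III, of which 9 (1.39%, 95% Wilson interval 0.731 to 2.61) overlapped no combined region, against 1.38% of all its nuclear ceiling regions. Replicate 2 had 850, of which 24 (2.82%, 1.90 to 4.17) did not, against 2.96%. In 4 of the 9 and 15 of the 24, the other replicate held no overlapping region either. Of 631 pairs at the ceiling in both replicates, 5 lay outside the combined list (0.792%, 0.339 to 1.84). The best of them was at 8020949 to 8021147 in replicate 1, number 1368, and at 8020944 to 8021148 in replicate 2, number 1136. Another at 4599096 to 4599535 in replicate 1 had numbers 1727 and 1765. Of the 5, 4 were in the centre and 1 in the right arm. No share over all chromosomes is given for such pairs, or for ceiling regions absent from the other replicate. Whether III differs from the other chromosomes in such pairs or absences therefore cannot be told. How the authors left strong regions out is not given in the sources used here.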

How the data were processed

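ChIP-seq peak lists were analysed for CES-1 in embryos, 1 for each of the 2 ChIP replicates and 1 combined list. Per the file headers the genome build is WormBase WS220, and the source field names SPP via IDR. The aligner, versions, thresholds and way of combining were not stated in the sources at hand. The authors' deposited score has no stated scale, and their peak number was used as rank. Per the labels' protocols, embryos were fixed with 2% formaldehyde and quenched with 100 mM Tris. Input libraries were not analysed on their own. Without read counts, depth is unknown.

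Chromosome III rows were selected by script and compared in Python 3.11.15 (scipy 1.17.1, pandas 2.3.3, numpy 2.4.6) and plotted by matplotlib 3.10.9. Regions were assigned to windows and parts of the span by their centres, and matched between lists by an overlap of at least 1 bp. Matching, merging and spacing steps were tested on simulated regions with known answers. Regions named were the 12 best-ranked, the best and last of each part, the 5 densest and the empty windows, the 5 longest stretches without a region, the 3 widest and narrowest, and the 3 best-ranked in 1 replicate alone. Repeated intervals and strong regions outside the combined list were added later. The members and rules were chosen with earlier results of these data known. Alternatives were stricter matching, merging, the best-ranked 4339 regions, moved windows, another span and each replicate alone.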

Additional observations from a re-analysis of the deposited data

How the results depend on the processing

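For 12 results, 50 alternatives were computed. Of these, 30 moved by less than the counting interval or the spread between replicates. For counts of windows and of regions in a window the limit was 1.5 times. The other 20 moved by more, with 0 reversed. Levels such as a density, a longest stretch or a median rank have no direction to reverse, so that 0 says nothing about them. The shares of III, left arm, centre and right arm moved by less in every alternative tried. Presence in both replicates was 97.4% with centres within 200 bp, 82.9% with 50% reciprocal overlap, 99.7% in the best-ranked 4339 and 99.3% in either replicate alone. Density was 90.6 per Mb after merging and 97.1 to 97.5 per Mb with 1 replicate. The densest window held 13 of the best-ranked 4339, a list with fewer regions by construction, and with windows moved by 50 kb there were 0 empty windows, so the count of 3 rests on where windows start. The longest stretch was 269.95 kb in the best-ranked 4339 and 152.7 to 174.98 kb with 1 replicate. The share at the commonest width was 38.02% in the best-ranked 4339, and 74.4% to 82.5% with 1 replicate. The median rank was 4057 after merging and 4279 to 4283.5 with 1 replicate. Rank agreement was 0.674 with 50% reciprocal overlap and 0.471 for pairs that overlap a combined region. By construction, merging lowers the density and keeps the best number of each stretch. The best-ranked 4339 leave fewer regions to break up long stretches. Beyond the constructions named, the cause was not tested. Settings with 1 replicate used its best-ranked regions in place of a combined list, except for presence. There the combined regions were kept and overlap with that replicate alone was counted. No paired analysis was possible because peaks exist here for ChIP libraries alone. With depth unknown, regions that more reads would add cannot be judged.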
